A study of Homo sapiens with 36 samples.

Results

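The genes described here build and supervise the mitotic spindle: 44 genes for kinetochore and centromere proteins, the spindle checkpoint, mitotic kinases and phosphatases, the chromosomal passenger complex, spindle and midzone proteins, anaphase, mitotic exit and cytokinesis. They were chosen by gene symbol, with earlier results of these data known, and all 44 were found among the 26475 symbols of the expression table. All 44 passed the filter on low counts in each of 4 experiments, and the lowest count of any of them in any library was 44.

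The study sequenced poly-A RNA from 3 established human cancer cell lines, with 3 biological replicates in each of 12 groups, 36 libraries in all. The lines were MDA-MB-468 from a basal-like breast cancer, PANC-1 from a carcinoma of the pancreas, and WiDr from an adenocarcinoma of the colon or rectum. In each line, cells carrying the pGIPZ lentiviral vector with a non-silencing hairpin were the control for cells carrying pGIPZ with 1 of 2 targeting short hairpin RNAs (hairpin 1 and hairpin 2). In a further experiment, WiDr cells with a non-targeting CRISPR guide RNA (NT-1) were the control for WiDr cells with 1 of 2 targeting guides (guide 1 and guide 2). Every group, controls included, therefore carried a delivery vector, and no library comes from unmodified cells. All cells were grown in DMEM with fetal bovine serum, and whether a group was a pool or a single clone is not stated in the labels. A check of the PANC-1 labels, not reported here, went against the label hairpin 2, so those 3 libraries are called the libraries labelled hairpin 2. For 4 of the 6 targeting guide libraries the genotype field names the other guide, and the groups below follow the titles.

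In mitosis each chromosome attaches to spindle microtubules through a kinetochore, which is assembled on centromeric chromatin that carries the histone variant CENP-A. Until every kinetochore is attached, the spindle checkpoint keeps the ubiquitin ligase APC/C and its activator CDC20 in check. Once the checkpoint is satisfied, APC/C marks securin for destruction, separase cuts cohesin, and the cell exits mitosis and divides. Many of these genes are transcribed in G2 and M phase and are repressed in resting cells, and their promoters are known for CHR elements and CCAAT boxes. In bulk RNA, fewer cells in G2 and M phase and less RNA per cell cannot be told apart.

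Because such promoters are a shared feature of this class of gene, the 200 bases before the RefSeq transcription start are shown for 5 members. RefSeq promoter windows (GRCh38.p14) were at hand for 33 of the 44 members, each with 250 bases before and 50 bases from the start site on. A single window was read per member, so any other start site of the same gene was not searched. The letters TTTGAA and TTTAAA, which form the core of CHR elements, and CCAAT were searched on both strands. CDC20, CENPF and MKI67 are shown as examples of windows with both kinds of letters, and NEK2 as an example with CCAAT alone. Other members hold the same letters. CDC25B is shown because its window holds neither and it changed unlike most members. The windows of CENPI and CDC25C, not shown, also hold neither. Capitals mark every match, read in either direction, and in MKI67 the last match of each kind shares a base with the other.
CDC20 (chr1:43358781-43358980, plus strand): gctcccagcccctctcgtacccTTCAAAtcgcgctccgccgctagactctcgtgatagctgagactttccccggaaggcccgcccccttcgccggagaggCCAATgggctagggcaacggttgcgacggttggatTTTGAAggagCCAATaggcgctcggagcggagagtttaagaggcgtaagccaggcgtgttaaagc
CENPF (chr1:214602995-214603194, plus strand): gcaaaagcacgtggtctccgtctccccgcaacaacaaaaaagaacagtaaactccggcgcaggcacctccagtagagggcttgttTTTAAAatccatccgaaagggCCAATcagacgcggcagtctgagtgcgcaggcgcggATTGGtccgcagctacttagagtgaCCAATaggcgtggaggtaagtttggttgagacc
MKI67 (chr10:128126424-128126623, minus strand): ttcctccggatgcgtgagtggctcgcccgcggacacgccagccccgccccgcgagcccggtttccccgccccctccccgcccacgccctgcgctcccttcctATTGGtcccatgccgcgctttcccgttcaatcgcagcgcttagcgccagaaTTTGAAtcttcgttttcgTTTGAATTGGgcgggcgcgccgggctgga
NEK2 (chr1:211675622-211675821, minus strand): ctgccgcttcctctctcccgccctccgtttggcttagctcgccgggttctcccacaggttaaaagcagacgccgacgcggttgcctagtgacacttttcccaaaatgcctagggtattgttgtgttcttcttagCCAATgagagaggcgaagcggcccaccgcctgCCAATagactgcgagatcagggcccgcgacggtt
CDC25B (chr20:3786751-3786950, plus strand): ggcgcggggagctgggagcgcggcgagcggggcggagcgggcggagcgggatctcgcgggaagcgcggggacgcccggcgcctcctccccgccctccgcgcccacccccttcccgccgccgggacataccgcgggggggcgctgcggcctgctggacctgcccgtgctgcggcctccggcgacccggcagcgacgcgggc
Over the 300-base windows, TTTGAA or TTTAAA occurred in 24 of 33 members (72.7%), against 24.0% of all 35116 windows of that length. CCAAT occurred in 25 of 33 (75.8%), against 34.6% of all windows. Both occurred in the same window in 19 members (57.6%), against 9.27%. E2F-like letters (TTTGGCGC, TTTCCCGC, TTTGGCGG or TTTCCCGG) occurred in 4 members (12.1%), against 4.31%. Members were counted with a single window each. The set of all windows was neither reduced to a window per gene nor limited to genes tested here, so the shares are on unlike sets. A match is a description of letters and shows no binding.

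Library totals ran from 28371119 to 49237321 expected counts. Fixed marker lists were read in every library. Of the basal breast markers, KRT5 (median 2112 CPM, counts scaled by library size), KRT14, KRT17, KRT6B and EGFR were highest in MDA-MB-468, while GABRP was higher in WiDr (medians 85.7 and 117 CPM in the hairpin and guide experiments) than in MDA-MB-468 (43.1 CPM). Of the colorectal markers, LGALS4 (577 and 403 CPM), VIL1 and CDX1 were highest in WiDr. CDX2 and CDH17 had higher medians in PANC-1 (6.15 and 2.58 CPM) than in WiDr (2.61 and 1.48 CPM, and 0.493 and 0.336 CPM), and GPA33 was at most 0.334 CPM in any library. Vimentin (VIM) had a median of 5881 CPM in PANC-1, where the ductal keratin KRT7 was at 7.16 CPM. Among markers of other cell types, PTPRC, CD3E, COL1A2 and DCN were at most 0.306 CPM in any library and PECAM1, CDH5 and VWF at most 3.03 CPM, while CD68 (75.3 to 182 CPM) and COL1A1 (8.77 to 43.6 CPM) were detected in PANC-1. In PANC-1 the share of counts on ribosomal RNA genes was 4.61% to 9.60% in the controls, against 0.838% to 2.60% with hairpin 1 and 1.22% to 1.80% in the libraries labelled hairpin 2. The WiDr share was 5.38% to 10.2% for hairpin 2 and 1.27% to 2.71% for hairpin 1 and the hairpin controls. Libraries of the same group also differed by transcript length. Among the 44 genes (914 to 12678 bases), the deviation of a library from its group mean correlated with length by a Spearman rho of -0.77 in MDA-MB-468 control 1 and 0.81 in control 2, and of 0.80 in PANC-1 control 1 against -0.81 and -0.65 in the other PANC-1 controls. These coefficients describe the libraries over genes that share depth and preparation, and the part of length in the results below was not tested. In what follows a level is TMM-scaled CPM, TMM being edgeR's scaling of library sizes, and a change is a log2 fold change of a construct against its own control. A gene rose or fell where edgeR's quasi-likelihood test gave a Benjamini-Hochberg adjusted p under 0.05 over all genes tested, with n = 3 libraries per group.

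On a scaling over all 36 libraries, the control cells of the 3 lines differed in the summed level of the 44 genes. The sum was highest in the PANC-1 controls, at 7038 ± 278 CPM (SD, n = 3), followed by MDA-MB-468 at 4756 ± 311 CPM. The 2 WiDr controls lay lower and apart from each other, at 3245 ± 15.1 CPM with the non-targeting guide and 2444 ± 47.8 CPM with the non-silencing hairpin, with no overlap between any of the 4 groups. With targeting constructs the WiDr sums were 3202 ± 54.4 and 3176 ± 16.7 CPM for the hairpins and 2618 ± 28.1 and 3419 ± 132 CPM for the guides. The hairpin-treated WiDr cells thus stood close to the level of the guide control, and the guide 1 cells between the 2 controls. These groups come from separate experiments, and no test was made between them.

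Per kilobase of the longest coding transcript, the ubiquitin-conjugating enzyme gene UBE2C, whose product works with APC/C, stood among the first 2 of the 44 genes in all 4 control groups. Its level there was 178 ± 46.9 CPM per kb in PANC-1, 124 ± 20.1 in MDA-MB-468, and 64.8 ± 1.92 and 70.1 ± 3.75 in the WiDr hairpin and guide controls. In PANC-1 its spread overlapped that of TPX2, which encodes a spindle assembly factor, at 184 ± 7.76 CPM per kb. SPC24, a subunit of the NDC80 complex, was last in every control group, from 0.868 ± 0.111 to 2.23 ± 0.197 CPM per kb. The plot of levels per length shows the order of all 44 genes.

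**Figure D1:**
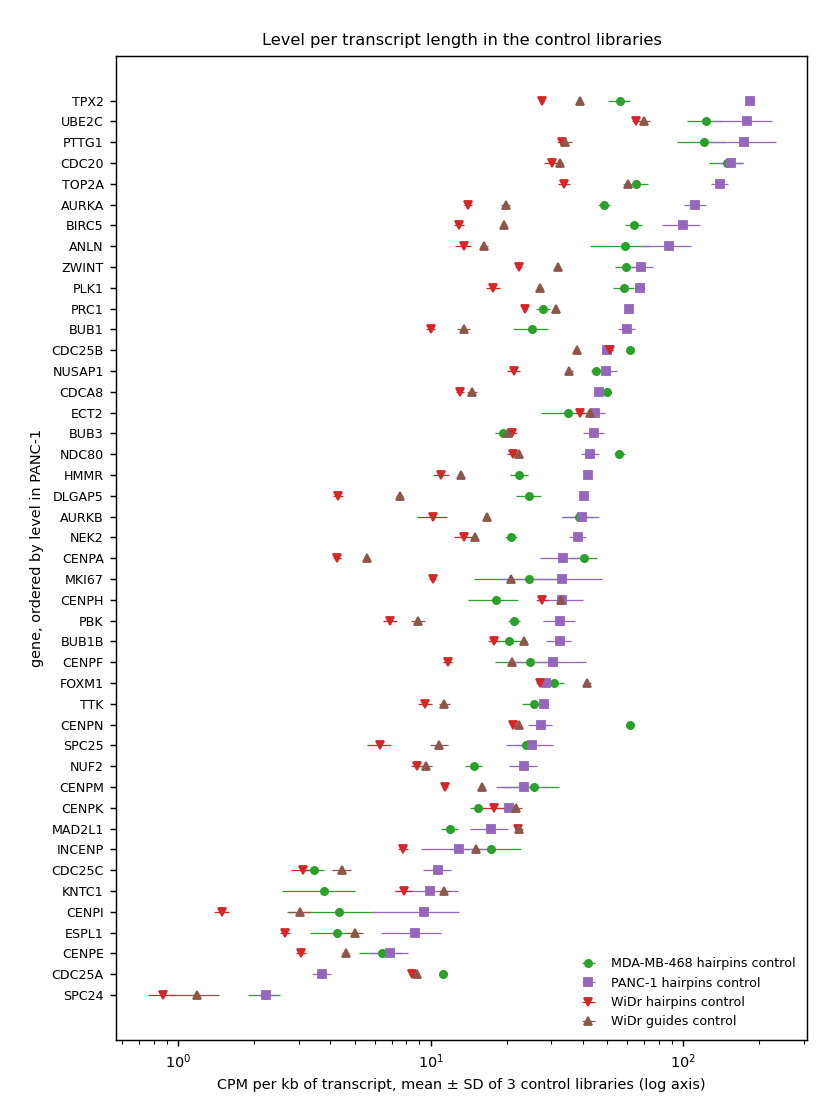
Level of each of the 44 genes per kilobase of transcript in the control libraries (log axis, mean ± SD of 3 libraries, scaling over all 36 libraries), with genes ordered by their level in PANC-1. Most PANC-1 squares lie to the right of the WiDr triangles, and SPC24 is lowest in all 4 control groups.

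In WiDr cells most of the 44 genes rose with both hairpins. With hairpin 1, 34 rose and 1 fell, and with hairpin 2, 29 rose and 0 fell. Both hairpins raised 26 of the 44 and lowered none. Over all 14317 genes tested, 24.1% rose and 23.9% fell with hairpin 1, 22.2% rose and 22.5% fell with hairpin 2, and 12.3% rose and 12.9% fell with both. The median change of the 44 genes was 0.44 with hairpin 1 and 0.33 with hairpin 2, while the median of all genes was 0.00 and -0.01. Each library showed it: relative to the control mean, the median over the 44 genes lay between 0.42 and 0.46 in the 3 hairpin 1 libraries and between 0.30 and 0.34 in the 3 hairpin 2 libraries, against -0.03 to 0.02 in the controls. Without the ribosomal RNA genes, an alternative chosen after seeing the data, 34 rose with hairpin 1, 28 with hairpin 2 and 25 with both.

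**Figure D2:**
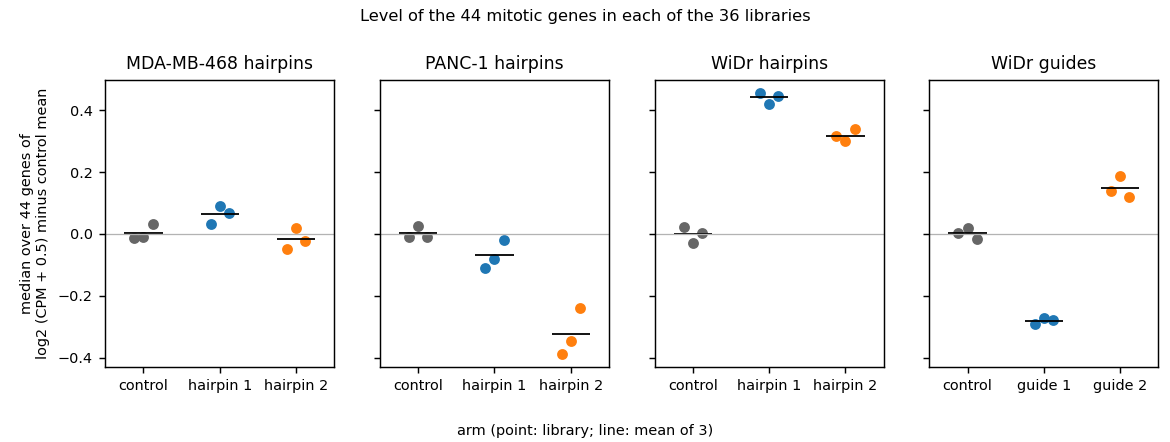
Median over the 44 genes of log2 (CPM + 0.5) minus the control mean, one point per library and a line at the mean of 3 libraries, in each of the 4 experiments. Both WiDr hairpin groups and WiDr guide 2 lie above their controls, and WiDr guide 1 and the PANC-1 libraries labelled hairpin 2 lie below theirs. PANC-1 hairpin 1 (-0.11 to -0.02) also lies below its controls (-0.01 to 0.03), by less. The MDA-MB-468 groups stay within 0.10 of 0.

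Of the 10 kinase and phosphatase genes, 8 rose with hairpin 1 and 6 with hairpin 2 in WiDr. AURKA (chr20:56369389-56392337), which encodes the centrosomal kinase Aurora A, showed the largest mean change of the 44 genes. Its level was 29.6, 31.5 and 31.5 CPM in the controls, 63.2, 55.2 and 60.1 CPM with hairpin 1 and 57.6, 55.6 and 56.8 CPM with hairpin 2. All 6 hairpin libraries lay above all 3 controls, with changes of 0.95 (SE 0.0610, adjusted p = 6.8e-09) and 0.88 (SE 0.0609, adjusted p = 1.7e-08). PLK1 (chr16:23677656-23690367), the Polo-like kinase of mitotic entry and spindle assembly, stood at 36.2, 41.2 and 37.9 CPM in the controls, 59.3, 58.2 and 58.6 CPM with hairpin 1 and 57.5, 52.5 and 57.4 CPM with hairpin 2. Those groups did not overlap either, and the changes were 0.61 (SE 0.0611) and 0.53 (SE 0.0610). The checkpoint kinases TTK (0.43 and 0.33, SE 0.0673) and BUB1 (0.39, SE 0.0607, and 0.37, SE 0.0606) rose by smaller amounts. CDC25C, a phosphatase that activates CDK1, went from 6.46 ± 0.675 CPM to 9.21 ± 0.270 and 8.58 ± 0.780 CPM (0.51 and 0.40, SE 0.103). Its relative CDC25B rose with hairpin 2 only in the test (0.29, SE 0.0453), with 0.08 (SE 0.0454) for hairpin 1, and the 2 hairpins differed by 0.21 (adjusted p = 0.0018). CDC25A did not pass with either hairpin (0.00 and -0.11). The centrosomal kinase NEK2 (0.56 and 0.20), AURKB, the kinase of the passenger complex (0.46 and 0.12), and the mitotic kinase PBK (0.43 and 0.17) passed with hairpin 1 alone.

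Among the anaphase genes, CDC20 (chr1:43358955-43363203), the activator of APC/C, measured 48.9, 56.3 and 51.8 CPM in the WiDr hairpin controls, 80.8, 72.1 and 72.9 CPM with hairpin 1 and 66.5, 64.9 and 66.7 CPM with hairpin 2. The 3 groups did not overlap, with hairpin 2 between the controls and hairpin 1 (0.52, SE 0.0616, and 0.33, SE 0.0617). UBE2C rose by 0.49 and 0.42 and the separase gene ESPL1 by 0.45 and 0.50. PTTG1 (chr5:160421822-160428744), which encodes securin, the inhibitor of separase, stood at 34.6, 34.2 and 34.7 CPM in the controls and at 56.4, 42.9 and 40.3 CPM with hairpin 1 (0.43, SE 0.103, adjusted p = 0.0038). With hairpin 2 its 33.5, 37.1 and 32.0 CPM spanned the control values (-0.01, SE 0.104), and the hairpins differed by -0.43 (adjusted p = 0.0041).

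All 5 spindle and midzone genes rose with both WiDr hairpins. DLGAP5 (chr14:55148112-55191678), whose product HURP stabilises kinetochore fibres, went from 12.5, 11.9 and 13.0 CPM to 24.2, 23.3 and 23.7 CPM with hairpin 1 and 20.7, 20.8 and 18.1 CPM with hairpin 2. These groups were apart, with changes of 0.93 (SE 0.0740, adjusted p = 6.4e-08) and 0.68 (SE 0.0744, adjusted p = 2.7e-06). HMMR, a spindle and hyaluronan-binding protein, rose by 0.79 and 0.53, TPX2 by 0.60 and 0.52, the midzone bundler PRC1 by 0.48 and 0.43, and NUSAP1, a spindle-associated protein, by 0.37 and 0.39. The cytokinesis genes ANLN (0.36 and 0.46), which encodes the actin-binding scaffold anillin, and ECT2 (0.48 and 0.37), the exchange factor that activates RhoA at the cell equator, rose as well.

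Of the 8 centromere genes, 7 rose with hairpin 1 and 4 with hairpin 2. The kinetochore protein gene CENPF (chr1:214603195-214664588) measured 122, 113 and 118 CPM in the controls, 163, 189 and 188 CPM with hairpin 1 and 190, 179 and 191 CPM with hairpin 2 (0.62 and 0.67, SE 0.0598), again with no overlap. CENPI, a subunit of the constitutive centromere network, rose by 0.70 (SE 0.124) and 0.83 (SE 0.123) from 4.73 ± 0.304 CPM, and the kinetochore motor CENPE by 0.65 and 0.79. CENPA, which encodes the centromeric histone itself, rose by 0.63 (SE 0.102) and 0.32 (SE 0.104), from 6.01 ± 0.215 CPM to 9.35 ± 0.824 and 7.51 ± 0.707 CPM. The centromere network genes CENPH (0.59 and 0.07), CENPK (0.36 and 0.01) and CENPM (0.23 and -0.20) rose with hairpin 1 and did not pass with hairpin 2, and CENPN passed with neither (0.12 and 0.03). In the NDC80 complex, which binds microtubules, NDC80 (0.64 and 0.37) and SPC25 (0.58 and 0.30) rose with both hairpins and NUF2 with hairpin 1 (0.40, against 0.08), while SPC24 passed with neither (-0.14 and 0.14).

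Of the 8 checkpoint and passenger genes, 3 rose with hairpin 1 and 4 with hairpin 2. Of the 5 checkpoint genes apart from the kinases, BUB1B, which encodes BubR1 (0.35 and 0.38), and ZWINT, a kinetochore protein (0.38 and 0.15), rose with both hairpins. BUB3, the partner of BUB1 and BubR1 (0.09 and 0.02), MAD2L1, which encodes the checkpoint effector MAD2 (-0.16 and -0.07), and KNTC1, which helps recruit it (0.17 and 0.17), did not pass. In the passenger complex CDCA8, or borealin, rose by 0.22 and 0.25, and BIRC5, or survivin, gave 0.13 (SE 0.0617, adjusted p = 0.088) and 0.11 (SE 0.0615, adjusted p = 0.18). INCENP (chr11:62123973-62153163), the scaffold of that complex, was the 1 gene that moved in opposite directions. It measured 28.7, 31.4 and 30.1 CPM in the controls, 24.2, 25.9 and 28.97 CPM with hairpin 1 and 38.0, 38.2 and 40.4 CPM with hairpin 2. The hairpin 1 values overlapped the controls and the hairpin 2 values did not, with changes of -0.19 (SE 0.0716, adjusted p = 0.041) and 0.37 (SE 0.0702, adjusted p = 0.00052). The fall was lost when the 6 libraries were fitted alone (adjusted p = 0.072).

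Of the 3 chromatin and transcription genes, TOP2A (chr17:40388516-40417950), the topoisomerase that untangles sister chromatids, went from 201, 179 and 189 CPM to 304, 288 and 294 CPM with hairpin 1 and 287, 280 and 283 CPM with hairpin 2 (0.64 and 0.58, SE 0.0504). MKI67 (chr10:128096659-128126385), the proliferation marker that coats mitotic chromosomes, went from 131, 123 and 124 CPM to 147, 199 and 200 CPM and to 235, 205 and 231 CPM (0.53 and 0.83, SE 0.104). No hairpin library of either gene reached down to the controls. FOXM1, a transcription factor for G2 and M phase genes, gave 0.12 (SE 0.0495, adjusted p = 0.060) and 0.23 (SE 0.0494, adjusted p = 0.0016).

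Tested against each other, the 2 WiDr hairpins differed for 18 of the 44 genes, 15 of them lower and 3 higher with hairpin 2. That share is close to the 42.4% of all genes that differed. CENPH (-0.51), PTTG1 (-0.43) and CENPM (-0.43) were lower with hairpin 2 by the largest amounts, and INCENP (0.56), MKI67 (0.30) and CDC25B (0.21) were the 3 higher ones. Transcript length moved with this difference: across the 44 genes, length and the difference had a Spearman rho of 0.70 (0.36 over 12497 genes with a length). The 22 shorter genes (up to 2711 bases) had median changes of 0.44 with hairpin 1 and 0.18 with hairpin 2, and the 22 longer ones (from 2973 bases) 0.44 and 0.40.

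**Figure D3:**
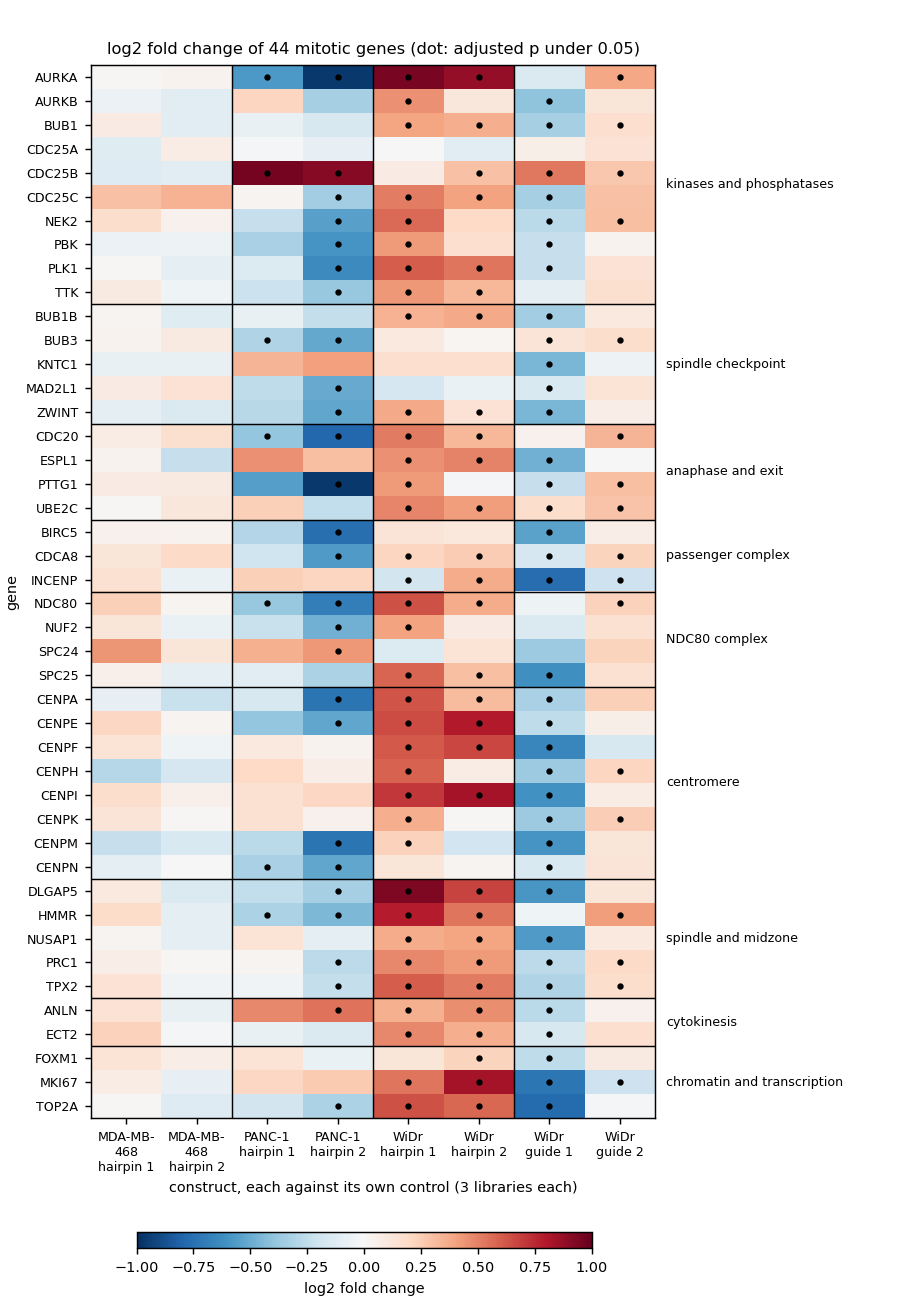
Log2 fold change of each of the 44 genes (rows, grouped by role) for each construct against its own control (columns, 3 libraries per group), from -1 in blue to 1 in red, with a dot where the adjusted p was under 0.05. The WiDr hairpin columns are mostly red with dots, the guide 1 column and the PANC-1 column labelled hairpin 2 mostly blue with dots, and the MDA-MB-468 columns hold no dot.

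In the second WiDr experiment the guides moved these genes in different directions. With guide 1, 3 of the 44 genes rose and 33 fell (median -0.29), against 21.4% rising and 20.3% falling of all 14649 genes tested. With guide 2, 15 rose and 2 fell (median 0.15), against 14.1% and 11.3%. Both guides raised 3 of the 44 genes and lowered 2, against 8.48% and 6.26% of all genes. Relative to the control mean, the median over the 44 genes lay between -0.29 and -0.27 in the guide 1 libraries and between 0.12 and 0.19 in the guide 2 libraries, so the groups stood on opposite sides of the controls (-0.02 to 0.02). Tested against each other, 41 of the 44 genes differed, 40 of them higher and 1 lower with guide 2, where 34.4% of all genes differed. These counts rest on the titles. With groups from the genotype field, which leaves 5 libraries under guide 1 and 1 under guide 2, most of these calls were lost. The share of all genes called was not counted under that grouping, so the loss cannot be read as a result about the 44 genes.

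With guide 1, all 8 centromere genes and all 3 chromatin and transcription genes fell. TOP2A measured 341, 350 and 343 CPM in the guide controls and 216, 198 and 194 CPM with guide 1 (-0.77, SE 0.0606, adjusted p = 4.1e-08). With guide 2 it stayed at 364, 355 and 309 CPM, around the control values (-0.01, SE 0.0600). MKI67 went from 261, 258 and 266 CPM to 172, 155 and 148 CPM (-0.72, SE 0.0709) and to 255, 219 and 207 CPM with guide 2 (-0.20, SE 0.0703, adjusted p = 0.044). It was below the controls in all 6 guide libraries. FOXM1 fell with guide 1 (-0.25, SE 0.0457) and gave 0.09 (SE 0.0455) with guide 2. CENPF went from 216, 215 and 213 CPM to 152, 132 and 126 CPM (-0.65, SE 0.0876), with guide 2 at 216, 193 and 167 CPM (-0.16, SE 0.0869, adjusted p = 0.19). CENPI (-0.61, SE 0.111), CENPM (-0.59), CENPA (-0.32, SE 0.100), CENPE (-0.26) and CENPN (-0.15) fell with guide 1, and none of these 5 passed with guide 2 (0.07, 0.12, 0.24, 0.06 and 0.13).

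Besides MKI67, INCENP was lowered by both guides. It stood at 60.3, 57.6 and 60.6 CPM in the controls, 35.7, 34.8 and 35.0 CPM with guide 1 and 58.7, 46.5 and 49.9 CPM with guide 2. The guide 1 group lay far below the controls (-0.76, SE 0.0716, adjusted p = 3.1e-07), and 1 of the guide 2 libraries lay within them (-0.20, SE 0.0703, adjusted p = 0.043). Neither shared fall was stable: without control 1, 2 or 3, or without replicate 2 of guide 1 or replicate 2 or 3 of guide 2, 0 genes fell with both guides. Its partner BIRC5 went from 53.3, 50.9 and 52.4 CPM to 34.4, 35.8 and 37.8 CPM with guide 1 (-0.54, SE 0.0571) and stood at 53.0, 53.8 and 57.5 CPM with guide 2 (0.07, SE 0.0561). DLGAP5 went from 21.9, 21.8 and 22.8 CPM to 13.9, 15.8 and 14.6 CPM with guide 1 (-0.58, SE 0.0682) and to 24.7, 23.9 and 23.7 CPM with guide 2, above the controls without passing (0.12, SE 0.0663, adjusted p = 0.20). Further genes that fell with guide 1 and did not pass with guide 2 were SPC25 (-0.61 and 0.16), NUSAP1 (-0.56 and 0.09), ESPL1 (-0.48 and 0.01), KNTC1 (-0.46 and -0.05), ZWINT (-0.45 and 0.06), AURKB (-0.40 and 0.12), BUB1B (-0.35 and 0.10), CDC25C (-0.33 and 0.29), ANLN (-0.27 and 0.04), PBK (-0.23 and 0.03), ECT2 (-0.16 and 0.17) and MAD2L1 (-0.15 and 0.13).

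For 8 genes both guides passed in opposite directions, falling with guide 1 and rising with guide 2. The share of all genes with opposite calls was not counted, so whether 8 of 44 is unusual is not known. PTTG1 measured 38.2, 36.8 and 33.2 CPM in the controls, 28.3, 31.7 and 32.0 CPM with guide 1 and 41.9, 45.9 and 45.5 CPM with guide 2. None of the 3 groups overlapped, with changes of -0.23 (SE 0.0692, adjusted p = 0.013) and 0.30 (SE 0.0683, adjusted p = 0.0041). CENPK went from 37.4 ± 2.14 CPM to 29.1 ± 2.03 and 44.4 ± 4.59 CPM (-0.36 and 0.25) and CENPH from 45.2 ± 1.13 CPM to 35.2 ± 2.96 and 52.6 ± 2.35 CPM (-0.36 and 0.22). NEK2 (-0.27 and 0.30), TPX2 (-0.30 and 0.17), PRC1 (-0.26 and 0.19), CDCA8 (-0.17 and 0.22) and BUB1 (-0.33 and 0.17) completed this group. The rise of BUB1 with guide 2 was at adjusted p = 0.045 and did not pass with DESeq2 (adjusted p = 0.077).

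Against the majority, CDC25B (chr20:3786772-3806121), a phosphatase that activates CDK1 at the entry into mitosis, rose with both guides. It measured 135, 136 and 133 CPM in the controls, 198, 189 and 197 CPM with guide 1 and 164, 157 and 166 CPM with guide 2. The 3 groups were fully apart (0.53, SE 0.0455, adjusted p = 1.1e-07, and 0.27, SE 0.0456, adjusted p = 0.00045), and CDC25B was the 1 gene lower with guide 2 than with guide 1 (-0.26). UBE2C (0.18 and 0.29, SE 0.0609) and BUB3 (0.13 and 0.18, SE 0.0475) were the other genes raised by both guides. Both lost the call with guide 1 without control 2 or 3 or without replicate 2 or 3 of guide 1, which left 1 gene raised by both. AURKA stood at 44.6, 45.6 and 42.0 CPM in the controls, 38.0, 41.6 and 39.8 CPM with guide 1 and 54.5, 59.3 and 59.2 CPM with guide 2. It was above the controls with guide 2 (0.39, SE 0.0589) and just below them with guide 1 without passing (-0.15, SE 0.0595, adjusted p = 0.060). CDC20 (0.04 and 0.34), NDC80 (-0.05 and 0.23) and HMMR (-0.05 and 0.42) likewise rose with guide 2 alone. PLK1 fell with guide 1 (-0.23, SE 0.0533) and gave 0.14 (SE 0.0530, adjusted p = 0.058) with guide 2, and TTK (-0.09 and 0.16), CDC25A (0.06 and 0.14), NUF2 (-0.15 and 0.15) and SPC24 (-0.36 and 0.22) passed with neither. With guide 2 the change had a Spearman rho of -0.51 with transcript length across the 44 genes (-0.34 over 12762 genes). With guide 1 it was -0.10, and the medians of the 22 shorter and 22 longer genes were both -0.29.

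**Figure D4:**
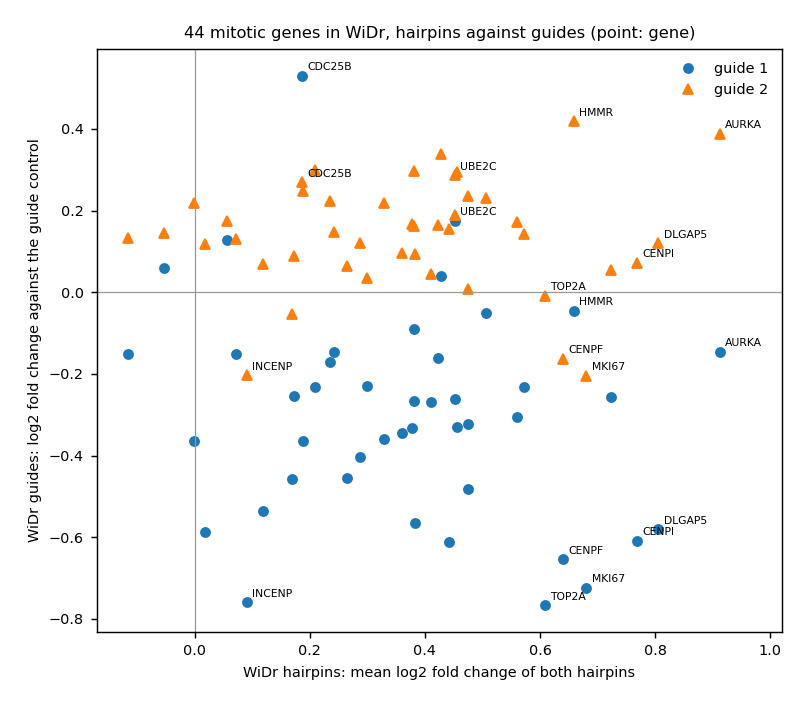
Change of each of the 44 genes in WiDr, the mean log2 fold change of both hairpins on the x axis and that of guide 1 (circles) or guide 2 (triangles) on the y axis, each against its own control. Most circles lie below 0 and most triangles above it at positive hairpin changes, and CDC25B is the highest circle at 0.53.

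In PANC-1 the changes that passed were mostly falls. With hairpin 1, 1 of the 44 genes rose and 6 fell (median -0.09), against 16.2% rising and 14% falling of 15128 genes. In the libraries labelled hairpin 2, 3 rose and 24 fell (median -0.32), against 16.7% and 16.7%. In both, 1 rose and 6 fell, against 12.7% and 11.1%. For hairpin 1 the share of the 44 genes that fell was thus close to that of all genes, and the rising share was below it. The count of 6 depended on single libraries: 16 genes fell and 5 rose in both groups without control 1, 2 fell without control 2 and 1 without control 3, and 1 to 3 fell in both without replicate 2 or 3 of hairpin 1 or replicate 2 of the libraries labelled hairpin 2. Between hairpin 1 and the libraries labelled hairpin 2, 0 of the 44 genes differed in edgeR's test (0.106% of all genes), and 8 passed with DESeq2. In edgeR 18 were at an unadjusted p under 0.05, all lower in the libraries labelled hairpin 2, against 9.96% of all genes in either direction. The ribosomal RNA share, given above, was higher in all 3 PANC-1 controls than in the 6 hairpin libraries. Leaving those genes out gave the same counts, 6 falls and 1 rise in both.

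AURKA fell in both PANC-1 groups, from 221, 264 and 256 CPM in the controls to 170, 161 and 166 CPM with hairpin 1 and 127, 123 and 129 CPM in the libraries labelled hairpin 2. All 3 groups were apart, with changes of -0.57 (SE 0.0858, adjusted p = 0.0011) and -0.97 (SE 0.0864, adjusted p = 5.3e-05). CDC20 went from 235, 291 and 283 CPM to 219, 203 and 196 CPM and to 161, 162 and 147 CPM (-0.39, SE 0.101, and -0.78, SE 0.101), again without overlap. The others that fell in both were NDC80 (-0.38 and -0.69), CENPN (-0.32 and -0.52), HMMR (-0.32 and -0.45) and BUB3 (-0.30 and -0.51). CDC25B was the 1 gene that rose in both, from 185, 168 and 176 CPM to 342, 348 and 334 CPM and to 343, 338 and 313 CPM (0.95, SE 0.0794, and 0.91, SE 0.0793). It was the largest change of the 44 genes with hairpin 1 in this line.

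A further 18 genes fell in the libraries labelled hairpin 2 alone. PLK1 stood at 152.2, 139.4 and 150.9 CPM in the controls, 136.6, 139.1 and 126.8 CPM with hairpin 1 and 99.2, 96.0 and 89.6 CPM in the libraries labelled hairpin 2. The last group lay below all others (-0.64, SE 0.0801, adjusted p = 0.0004), while the hairpin 1 values lay just below the controls and did not pass (-0.14, SE 0.0797). PTTG1 measured 117, 197 and 235 CPM in the controls, 157, 108 and 111 CPM with hairpin 1 and 91.0, 96.1 and 94.8 CPM in the libraries labelled hairpin 2 (-0.55, SE 0.234, and -0.96, SE 0.235). Its control 1 stood far below the other controls, as did that library for UBE2C (112 against 185 and 182 CPM). BIRC5 (-0.75, SE 0.139), CENPA (-0.73, SE 0.143), CENPM (-0.73), CDCA8 (-0.57), NEK2 (-0.54), TTK (-0.38, SE 0.103), CDC25C (-0.35, SE 0.106), DLGAP5 (-0.33), TOP2A (-0.32, SE 0.105), PRC1 (-0.26) and TPX2 (-0.24) also fell there. So did PBK (-0.59), CENPE (-0.52), ZWINT (-0.52), MAD2L1 (-0.51) and NUF2 (-0.48), and 2 genes rose there alone, ANLN (0.54) and SPC24 (0.43).

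For some genes, long and short, the PANC-1 controls disagreed among themselves. MKI67, the longest transcript, stood at 626 CPM in control 1 and 300 and 315 CPM in the other controls, with 283, 569 and 583 CPM with hairpin 1 and 483, 465 and 540 CPM in the libraries labelled hairpin 2. The groups overlapped, and the changes of 0.21 and 0.26 had an SE of 0.326. CENPF (433 CPM in control 1 against 236 and 260 CPM), CENPI (43.3 against 21.4 and 25.9 CPM) and INCENP (67.5 against 39.7 and 44.1 CPM) showed the same split and did not pass, while PTTG1 and UBE2C, among the shortest, had the opposite split, and TOP2A, at 5758 bases, was more even (861, 733 and 782 CPM). FOXM1 (0.14 and -0.06) and BUB1 (-0.07 and -0.16) did not pass either, nor did AURKB (0.22 and -0.33), BUB1B (-0.08 and -0.24), CDC25A (-0.02 and -0.08), CENPH (0.20 and 0.07), CENPK (0.15 and 0.05), ECT2 (-0.07 and -0.15), ESPL1 (0.46 and 0.30), KNTC1 (0.34 and 0.41), NUSAP1 (0.14 and -0.09), SPC25 (-0.10 and -0.31) and UBE2C (0.24 and -0.24). Across the 44 genes length had a Spearman rho of 0.21 with the change for hairpin 1 and of 0.45 for the libraries labelled hairpin 2. The 22 shorter genes had medians of -0.21 and -0.53, and the 22 longer ones -0.03 and -0.15.

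**Figure D5:**
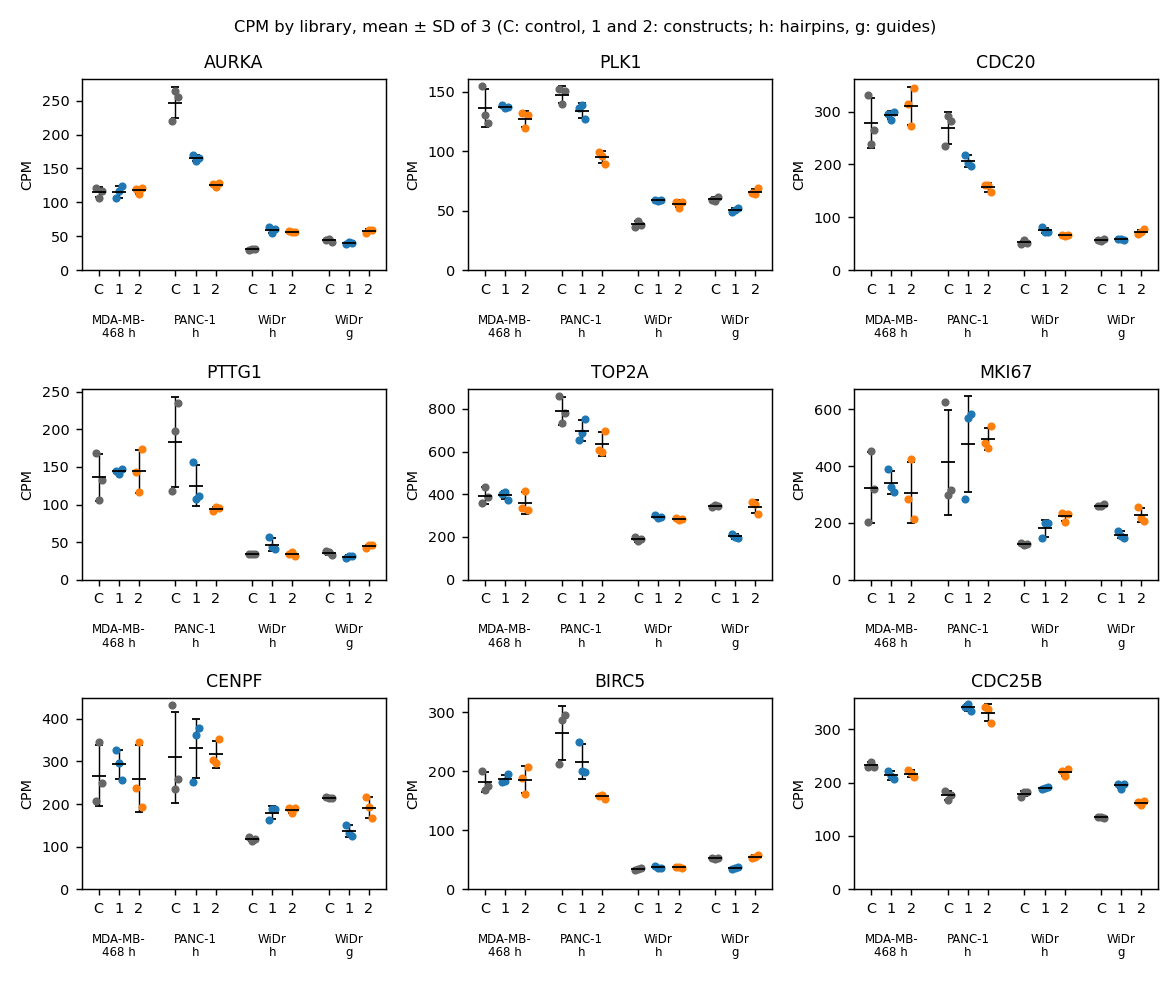
CPM of 9 genes in each library (points), with the mean ± SD of 3 libraries (bars), for the control (C) and constructs 1 and 2 of the hairpin (h) and guide (g) experiments. AURKA falls in PANC-1 and rises in WiDr with hairpins, CDC25B is raised in both PANC-1 hairpin groups, and MKI67 and CENPF spread widely within MDA-MB-468 and within the PANC-1 controls.

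In MDA-MB-468, edgeR's test called 0 of the 44 genes with hairpin 1 and 0 with hairpin 2, up or down. Of all 14641 genes 1.24% rose and 1.03% fell with hairpin 1, 1.69% rose and 1.8% fell with hairpin 2, and 0.744% rose and 0.567% fell with both. At an unadjusted p under 0.05, 4 of the 44 genes were higher and 0 lower with hairpin 1, and 2 higher and 0 lower with hairpin 2. Of all genes, 12.9% were under that p with hairpin 1 and 15.6% with hairpin 2, in either direction. DESeq2 called 2 higher with hairpin 1 and 1 higher with hairpin 2, among them NDC80 (0.24, adjusted p = 0.031) with hairpin 1 and CDCA8 (0.19, adjusted p = 0.0030) with hairpin 2. Between the hairpins 0 of the 44 differed (0.437% of all genes), with 5 at an unadjusted p under 0.05 (9.58% of all genes). The medians of the 44 genes were 0.07 and -0.04.

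The spread between MDA-MB-468 libraries varied from gene to gene, with SEs of the 44 genes from 0.0596 to 0.314. AURKA was even, at 121, 106 and 117 CPM in the controls, 107, 116 and 124 CPM with hairpin 1 and 120, 112 and 121 CPM with hairpin 2 (0.01 and 0.03, SE 0.0831). MKI67 was not, at 202, 452 and 321 CPM in the controls, 390, 328 and 309 CPM with hairpin 1 and 283, 424 and 215 CPM with hairpin 2 (0.08 and -0.08, SE 0.307). INCENP (51.1, 94.7 and 70.8 CPM) and CENPI (8.81, 19.6 and 16.0 CPM) had their lowest control in the same library as MKI67, and PTTG1 (169, 106 and 133 CPM) and UBE2C (142, 101 and 113 CPM) had their highest control there. All groups of these 5 genes overlapped. CDC25B stood at 229, 240 and 230 CPM in the controls and at 207 to 223 CPM in the 6 hairpin libraries, all below the controls, and did not pass (-0.13 and -0.10, SE 0.0634). CDC25C had the largest mean change of the 44 genes over both hairpins (0.30 and 0.35, SE 0.114), from 7.73 ± 0.777 CPM to 9.49 ± 0.517 and 9.81 ± 0.946 CPM, and did not pass (adjusted p = 0.30 and 0.16). With hairpin 1 alone SPC24 had the largest change (0.44, against 0.12 with hairpin 2) and did not pass either.

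Whether the changes differed between lines was tested as an interaction, on the mean of both constructs. The change differed between the WiDr and PANC-1 hairpin experiments for 29 of the 44 genes, 28 of them higher and 1 lower in WiDr, where 37.2% of all genes differed. In these tests the PANC-1 mean takes equal parts from hairpin 1 and from the libraries labelled hairpin 2, whose label is in doubt, so the PANC-1 tests were repeated with hairpin 1 alone, an alternative chosen after seeing the data. With hairpin 1 alone 22 genes differed from WiDr, 21 higher and 1 lower in WiDr (32.1% of all genes). AURKA led with a difference of 1.63 (SE 0.0794, adjusted p = 3.8e-10), in a joint fit, with mean changes in the separate fits of 0.91 in WiDr and -0.77 in PANC-1, and by 1.42 with PANC-1 hairpin 1 alone. PLK1 differed by 0.91 (SE 0.0850), DLGAP5 by 1.04, NDC80 by 0.99, CDC20 by 0.96 and CENPE by 1.13. CDC25B was the gene that went the other way (-0.79, SE 0.0730, adjusted p = 3.8e-07). Between PANC-1 and MDA-MB-468, 16 genes differed, 15 lower and 1 higher in PANC-1, where 23.9% of all genes differed. CDC25B was the higher one (1.03, SE 0.0783), and AURKA (-0.81, SE 0.0995), PTTG1 (-0.86), CDC20 (-0.72), NDC80 (-0.69) and CDCA8 (-0.56, SE 0.0744) were among the lower ones. With PANC-1 hairpin 1 alone 8 genes differed, 7 lower and 1 higher (19% of all genes), and CDC25B (1.03), AURKA (-0.63) and CDCA8 (-0.39) still passed. Between WiDr and MDA-MB-468, 21 genes differed, all higher in WiDr, where 18.2% of all genes differed, with AURKA (0.90), DLGAP5 (0.85, SE 0.114) and PLK1 (0.63, SE 0.0917) at the lowest adjusted p. Leaving out WiDr control 2 brought this count to 13.

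Within WiDr the guide and hairpin experiments differed for 37 of the 44 genes, 36 of them lower and 1 higher with the guides, where 41.6% of all genes differed. The gap was widest for MKI67 (-1.15), CENPF (-1.05), DLGAP5 (-1.04, SE 0.0837), CENPI (-1.04) and TOP2A (-0.9999, SE 0.0695), and CDC25B was the 1 higher gene (0.21). TPX2 differed by -0.63 (SE 0.0526, adjusted p = 2.1e-09). The 7 genes for which the difference did not pass were BUB3, CDC25A, CENPK, CENPN, MAD2L1, PTTG1 and SPC24. Because the mean of the guides combines opposite changes, the values by guide above show more than this mean. The 2 experiments have separate controls, whose summed level of these genes also differed, as given above.

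A list of 81 other mitotic genes, taken from further kinetochore, APC/C, cohesin, condensin and cytokinesis components, was set beside the 44. In WiDr 28 rose and 6 fell with both hairpins (median 0.16), with 38 up and 10 down with hairpin 1 and 37 up and 11 down with hairpin 2. The shares with both hairpins were 34.6% up and 7.41% down, against 12.3% and 12.9% of all genes. Examples are the condensin subunit NCAPG (43.7 CPM to 76.9 and 87.8 CPM, 0.82 and 1.01), the abscission factor CEP55 (0.89 and 0.65) and the centromere gene CENPW (1.00 and 0.52). NCAPH, another condensin subunit (-0.32 and -0.47), and CENPT, a centromere network gene (-0.24 and -0.41), fell. With guide 1, 9 rose (11.1%, against 21.4% of all genes) and 37 fell (45.7%, against 20.3%). With guide 2, 20 rose (24.7%, against 14.1%) and 2 fell (2.47%, against 11.3%). Both guides raised 4, MIS12 and ZWILCH of the kinetochore and ANAPC16 and CDC16 of APC/C, and lowered 2, the cohesin regulator PDS5B and the midbody kinase CIT (-0.91 and -0.22). The shares with both guides, 4.94% up and 2.47% down, were below those of all genes (8.48% and 6.26%). In PANC-1, 2 rose and 13 fell with hairpin 1, 1 rose and 19 fell in the libraries labelled hairpin 2, and 1 rose and 10 fell in both. The falling shares with hairpin 1 (16.0%) and in both (12.3%) were close to those of all genes (14% and 11.1%), and the share in the libraries labelled hairpin 2 was 23.5%, against 16.7%. The riser was HJURP, the CENP-A chaperone (107 CPM to 187 and 172 CPM, 0.80 and 0.68), and OIP5, which helps load CENP-A, fell from 47.6 CPM to 31.6 and 23.9 CPM (-0.59 and -0.99). In MDA-MB-468, 1 rose with each hairpin, none fell, and none passed with both.

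Members with both kinds of promoter letters were then set beside members whose window lacked 1 or both kinds, as a description. In WiDr 16 of the 19 genes with both letters rose with hairpin 1 and 16 with hairpin 2, against 11 and 8 of the 14 other genes that have a window. Of all genes tested, 24.1% rose with hairpin 1 and 22.2% with hairpin 2. With guide 1, 17 of 19 fell against 9 of 14 (20.3% of all genes), and with guide 2, 5 of 19 rose against 5 of 14 (14.1% of all genes). In PANC-1 12 of 19 fell in the libraries labelled hairpin 2 against 5 of 14 (16.7% of all genes). With PANC-1 hairpin 1, 3 of 19 against 1 of 14 fell (14% of all genes). The median changes of the 2 groups were 0.48 and 0.40 with WiDr hairpin 1, 0.37 and 0.33 with WiDr hairpin 2, and -0.32 and -0.30 with guide 1. They were 0.13 and 0.16 with guide 2, -0.16 and 0.01 with PANC-1 hairpin 1, and -0.33 and -0.20 in the libraries labelled hairpin 2. In MDA-MB-468 they were 0.07 and 0.14 with hairpin 1 and -0.08 and 0.02 with hairpin 2. Of the genes whose promoters are printed above, CDC20, CENPF and MKI67 rose with both WiDr hairpins and NEK2 with hairpin 1. CDC25B, whose window held neither kind of letters, rose in both PANC-1 groups, with both guides and with WiDr hairpin 2. Most of its window lies inside the annotated gene, so the bases before the annotated gene start were largely not searched. CENPI and CDC25C, whose windows also held neither kind, changed as most members did in WiDr, rising with both hairpins and falling with guide 1. Any other start sites of these genes were not searched.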

How the data were processed

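Poly-A RNA of 36 libraries was sequenced. Per the submitters' processing notes the authors used Bowtie2 2.1.0, RSEM 1.2.15 and the build hg38, and they deposited an expected count for each gene and library. Annotation and strandedness: not given in the sources used here, so antisense reads cannot be told apart. Expected counts were rounded. Each experiment (9 libraries) was fitted by a robust quasi-likelihood F test (edgeR 4.0.16 under R 4.3.3, TMM scaling, low counts dropped by filterByExpr on the groups, Benjamini-Hochberg over all genes). SE is the size of the log2 fold change divided by the square root of F. Differences of changes used 18 libraries. DESeq2 1.42.0 was an alternative. The fits were also run on simulated counts. Those counts held no length-related differences between libraries, so that check does not cover them. Transcript lengths and gene positions are from GENCODE 29, promoters from RefSeq GRCh38.p14. Members and lists were chosen with earlier results of these data known. Values are given in full for 14 members fixed by name, the 3 largest shared changes per direction, opposite calls and the 3 lowest adjusted p of each interaction. The gene addressed by the constructs is not reported here.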

Additional observations from a re-analysis of the deposited data

Results flagged for a closer look

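The change of these genes differed between experiments in all 4 tests of the difference (edgeR interaction, Benjamini-Hochberg adjusted p under 0.05). The counts were 29 of 44 genes for WiDr hairpins against PANC-1 hairpins (37.2% of all genes), 16 for PANC-1 against MDA-MB-468 (23.9%), 21 for WiDr hairpins against MDA-MB-468 (18.2%) and 37 for WiDr guides against WiDr hairpins (41.6%).

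AURKA gave differences of 1.63 (WiDr against PANC-1), -0.81 (PANC-1 against MDA-MB-468) and 0.90 (WiDr against MDA-MB-468). CDC25B gave -0.79 for WiDr against PANC-1 and 1.03 for PANC-1 against MDA-MB-468. PLK1 gave 0.91 for WiDr against PANC-1 and 0.63 for WiDr against MDA-MB-468, and CDCA8 gave -0.56 for PANC-1 against MDA-MB-468. DLGAP5 gave 0.85 for WiDr against MDA-MB-468 and -1.04 for WiDr guides against hairpins, where TOP2A gave -0.9999 and TPX2 -0.63. Single libraries far from their group could not be tested with 3 libraries per group.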

How the results depend on the processing

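RLE scaling moved no count of calls by more than 1.5 times. With DESeq2, MDA-MB-468 had 2 members up with hairpin 1, 1 up with hairpin 2 and 1 other mitotic gene up with both. In PANC-1 DESeq2 gave 3 up and 11 down with hairpin 1, 3 up and 11 down in both, 16 other mitotic genes down in both and 8 members differing between the hairpin groups. Without the filter on low counts, 6 other mitotic genes fell in both PANC-1 groups and 2 members fell with WiDr hairpin 1, as also without ribosomal RNA genes (2). With PANC-1 hairpin 1 alone, 8 members differed from MDA-MB-468. On the 6 libraries of each comparison, 2 members fell with PANC-1 hairpin 1, 2 in both groups and 2 other mitotic genes in both, 0 fell with WiDr hairpin 1, 1 fell with WiDr hairpin 2 and 2 other mitotic genes rose with both guides. Residuals of same-numbered libraries correlated by -0.85 to 0.33 in PANC-1, against -0.57 to 0.73 for libraries with other numbers. In MDA-MB-468 these ranges were -0.36 to 0.84 against -0.82 to 0.79. For the WiDr hairpins they were -0.20 to 0.06 against -0.20 to 0.23, and for the WiDr guides -0.14 to 0.31 against -0.24 to 0.14. The ranges overlapped in each experiment, so they cannot decide whether replicate numbers pair the libraries. The main fits left pairing out. With the replicate block, 2 members fell with PANC-1 hairpin 1 and 2 in both groups, 1 rose and 15 fell in the libraries labelled hairpin 2, 3 other mitotic genes fell in both, and 8 other mitotic genes rose and 4 fell with both guides.

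Grouping the guide libraries by the genotype field left 1 member up and 0 down with guide 1, 0 in either direction with guide 2 or with both guides, 0 other mitotic genes up or down with both, and 0 members differing between guides. Under this grouping the sign turned for guide 1 at CDC25C (0.0814), PTTG1 (0.10), CENPA (0.0256), CDCA8 (0.0821), CENPK (0.0423), NEK2 (0.10), PRC1 (0.0267) and TPX2 (0.00805). For guide 2 it turned at AURKA (-0.14), BUB1 (-0.33), CDC20 (-0.000921), PTTG1 (-0.17), NDC80 (-0.0734), CDCA8 (-0.18), CENPH (-0.23), CENPK (-0.42), NEK2 (-0.26), PRC1 (-0.27) and TPX2 (-0.35). None of these passed, and the lone guide 2 library was assumed to vary like the others.

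Leaving out 1 library at a time gave 0 members in MDA-MB-468 throughout. In PANC-1 hairpin 1 gave 1 to 5 up and 1 to 16 down, the libraries labelled hairpin 2 gave 1 to 8 up and 15 to 26 down, both gave 1 to 5 up and 1 to 16 down, other mitotic genes gave 1 to 6 up and 3 to 24 down, and 0 to 5 members differed between the groups. The highest PANC-1 counts came without control 1. In WiDr, 33 to 35 members rose and 0 to 1 fell with hairpin 1, 26 to 32 rose and 0 to 1 fell with hairpin 2, 23 to 30 rose with both, and 21 to 33 other mitotic genes rose and 3 to 9 fell with both. The hairpins differed for 13 to 18 members. Guide 1 gave 1 to 3 up and 26 to 35 down, guide 2 gave 10 to 18 up and 0 to 3 down, both gave 1 to 3 up and 0 to 3 down, other mitotic genes gave 1 to 6 up and 1 to 7 down, and 39 to 41 members differed between the guides. Members whose change differed numbered 27 to 35 for WiDr against PANC-1, 11 to 20 for PANC-1 against MDA-MB-468, 13 to 23 for WiDr against MDA-MB-468 and 33 to 38 for WiDr guides against hairpins. For counts that moved, the cause was not tested.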
